A study of Mus musculus with 96 samples.

Results

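The WT epidermis time course comprised 24 of the 96 libraries of the series, all libraries labelled WT, with 4 at each of 6 circadian times (CT0, CT4, CT8, CT12, CT16 and CT20). Polyadenylated RNA was sequenced from back-skin epidermis that dispase had separated from the dermis. The mice were female C57BL/6, 8 weeks old, and had been in constant darkness for 156 to 176 h, so CT0 is the start of the subjective day and no light cycle was acting. Per the labels each time was sampled from 4 mice. WT mice were Arntl wt/wt, K14Cre wt/tg and Syt10-Cre tg/wt. They therefore carried intact copies of Arntl, the gene of the clock activator BMAL1, together with both Cre drivers used elsewhere in the series (K14Cre acts in keratinocytes and Syt10-Cre in the brain, including its central clock). The other 3 genotypes, with 24 libraries each and the same ages and times, were used for single comparisons. All were Arntl stopFL/stopFL, an allele blocked by a floxed stop. RERE had K14Cre tg/wt and Syt10-Cre tg/wt, EpiRE had K14Cre tg/wt and Syt10-Cre wt/wt, and BRE had K14Cre wt/wt and Syt10-Cre tg/wt.

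The epidermis is a stratified sheet in which basal keratinocytes divide on a basement membrane, then leave it, differentiate and build the cornified barrier. The circadian clock is a feedback loop in which BMAL1 and CLOCK activate genes through E-boxes, among them their own repressors. In skin the clock is known for timing the cell cycle of basal cells and their metabolism. The account here concerns the genes outside the clock and the cell cycle, grouped by the time at which they peaked and by what they encode.

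Depth was even, at 12.1 to 17.8 M reads per WT library (median 15.8 M) with 15493 to 15970 genes detected. The time labels were checked with 22 clock genes: predicted from a fit without itself, each library's clock time lay a median of 0.69 h from its label, and 23 of 24 libraries lay within 2 h. At CT16 replicates 1 to 4 read 14.95, 14.05, 18.18 and 17.51 h, and at CT20 they read 18.57, 18.81, 20.16 and 19.57 h. The earliest and latest CT16 libraries thus stood as far apart as neighbouring labels. Of 25 tested genes in the clock list 22 were called rhythmic by these same labels, and a choice of called genes would favour agreement. All fits used the labels. Keratinocyte markers summed to between 16500 and 22437 RPKM per library, whereas endothelial markers summed to at most 0.433 RPKM and adipocyte markers to at most 0.263 RPKM. Hair follicle markers summed to 3568 to 6072 RPKM and Langerhans cell markers to 141 to 394 RPKM. Those of T cells and fibroblasts are given below. The median gene of a library was shifted by -0.06 to 0.08 log2 units from the mean of all WT libraries, and by -0.02 to 0.03 when averaged by time.

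A 24 h cosine fitted to the deposited log2 RPKM values (limma, Benjamini-Hochberg adjusted p under 0.05) called 3675 of 11087 tested genes rhythmic, 33.1%. Tested genes, of 22497 in the table, averaged 0 or more on the log2 scale (1 RPKM). The amplitude is the height of the cosine above its mean in log2 units, and the trough-to-peak difference is 2 times as large. The median amplitude was 0.19 among called genes and 0.12 among all tested genes. Outside the clock and cell cycle lists, 3426 of 10777 genes were called (31.8%), and 118 of these had an amplitude of 0.5 or more. Their peaks lay at all times of day, as the plot of peak times shows. By 4 h window starting at CT0, 595, 421, 475, 847, 598 and 490 of them peaked (with the clock and cell cycle genes 5.47%, 3.82%, 4.46%, 8.26%, 5.77% and 5.37% of all tested genes), so that the window from CT12 held the most (24.7%) and the window from CT4 the fewest (12.3%). These ranks did not hold in all settings. With the clock and cell cycle genes, the window from CT16 was the fullest without replicate 2 (390 genes, against 373 from CT12). The fewest genes peaked from CT8 without replicate 1 (302), from CT0 without replicate 2 (282) and from CT16 under median-of-ratios scaling (537). The count of calls fell to between 2019 and 2701 when 1 replicate was left out, and 1180 genes were called in all 4 such sets as well as in the full set. For scale, the clock gene Arntl had an amplitude of 1.10 ± 0.07 (SE) peaking at CT22.0, Dbp one of 2.85 ± 0.18 at CT9.4, and the cell cycle gene Ccnb2 one of 0.96 ± 0.10 at CT0.2.

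**Figure D1:**
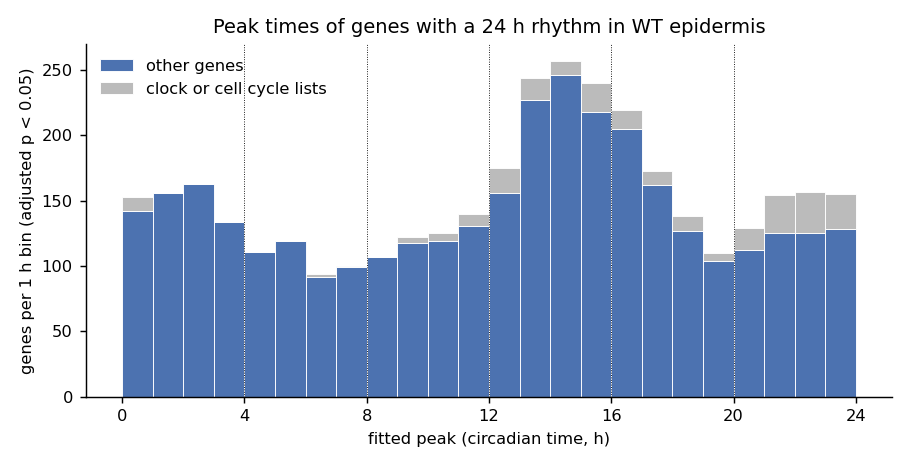
Fitted peak time of the 3675 genes with a 24 h rhythm in WT epidermis, in 1 h bins (x axis, circadian time in h; y axis, number of genes). Blue bars are the 3426 genes outside the clock and cell cycle lists, grey bars the 249 genes of those lists, and dotted lines divide the 4 h windows; peaks occur in every bin and are densest after CT12.

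The 5 genes of largest amplitude in each window were described in detail, among called genes outside the clock and cell cycle lists whose mean level reached 4 RPKM. Between their highest and lowest time these 30 genes differed by 2.01-fold to 4.42-fold (median 2.62-fold). The test of any difference between the 6 times, with time as a factor, also called 26 of them (20.3% of all tested genes were called by it), and 22 kept the cosine call in all 4 sets without 1 replicate. These genes were chosen for their amplitude, so their sizes are a description.

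Of these genes, 6 have a RefSeq promoter (250 bases before to 50 after the start) that holds a clock-related motif, searched on both strands: the E-box CACGTG, the ROR/REV-ERB element TNGGTCA, or the D-box TTANGTAA. A promoter was found for 20 of the 30. The E-box is held by 7.24% of all 27025 promoters of this length, the ROR/REV-ERB element by 10.9% and the D-box by 2.34%. The 6 sequences are shown because they belong to genes with large rhythms in 5 different windows. They are written 5′ to 3′ on the gene's strand (GRCm38.p6) with the motif in capitals.
Rnase1 promoter, chr14:51146718-51147017 (minus strand): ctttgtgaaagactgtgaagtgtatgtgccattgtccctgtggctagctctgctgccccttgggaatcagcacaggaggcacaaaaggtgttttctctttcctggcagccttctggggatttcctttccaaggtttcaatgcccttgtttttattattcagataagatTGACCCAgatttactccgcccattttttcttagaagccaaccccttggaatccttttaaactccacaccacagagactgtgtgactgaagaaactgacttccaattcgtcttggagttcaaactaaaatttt
Crispld2 promoter, chr8:119992188-119992487 (plus strand): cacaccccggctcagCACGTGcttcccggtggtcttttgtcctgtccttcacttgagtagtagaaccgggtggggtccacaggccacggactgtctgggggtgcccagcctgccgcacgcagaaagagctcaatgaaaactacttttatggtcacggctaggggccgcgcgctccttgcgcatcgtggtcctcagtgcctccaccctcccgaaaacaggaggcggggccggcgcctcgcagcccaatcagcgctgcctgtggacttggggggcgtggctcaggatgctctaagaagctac
Glul promoter, chr1:153899679-153899978 (plus strand): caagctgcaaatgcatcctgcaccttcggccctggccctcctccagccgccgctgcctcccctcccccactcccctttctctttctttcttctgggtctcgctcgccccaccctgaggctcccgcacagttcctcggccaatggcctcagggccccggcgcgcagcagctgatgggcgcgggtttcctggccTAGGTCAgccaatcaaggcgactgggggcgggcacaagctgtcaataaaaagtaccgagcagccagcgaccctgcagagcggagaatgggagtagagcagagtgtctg
Fkbp5 promoter, chr17:28486100-28486399 (minus strand): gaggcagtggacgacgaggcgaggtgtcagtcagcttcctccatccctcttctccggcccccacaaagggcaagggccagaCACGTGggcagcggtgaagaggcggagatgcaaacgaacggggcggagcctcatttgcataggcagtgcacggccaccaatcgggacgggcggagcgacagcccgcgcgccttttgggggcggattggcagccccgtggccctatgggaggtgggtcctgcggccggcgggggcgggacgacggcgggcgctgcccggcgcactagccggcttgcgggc
Pdxk promoter, chr10:78464899-78465198 (minus strand): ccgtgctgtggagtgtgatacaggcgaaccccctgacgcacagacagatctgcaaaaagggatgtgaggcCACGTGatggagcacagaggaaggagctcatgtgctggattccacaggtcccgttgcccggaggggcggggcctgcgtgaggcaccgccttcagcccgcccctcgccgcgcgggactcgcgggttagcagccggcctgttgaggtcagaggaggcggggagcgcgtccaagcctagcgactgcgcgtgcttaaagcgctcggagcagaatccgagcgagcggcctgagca
Hsph1 promoter, chr5:149636287-149636586 (minus strand): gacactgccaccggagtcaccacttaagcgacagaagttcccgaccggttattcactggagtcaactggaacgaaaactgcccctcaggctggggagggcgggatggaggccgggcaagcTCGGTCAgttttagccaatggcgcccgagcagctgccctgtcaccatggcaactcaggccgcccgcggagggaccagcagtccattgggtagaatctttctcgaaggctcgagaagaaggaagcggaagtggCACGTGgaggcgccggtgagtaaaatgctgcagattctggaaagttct
The E-box starts 169 bases before the start of Fkbp5, 180 before that of Pdxk and 235 before that of Crispld2, and 2 bases after that of Hsph1. The ROR/REV-ERB element starts 58 bases before the start of Glul, 82 before that of Rnase1, where it reads on the other strand, and 130 before that of Hsph1. A match describes the letters only and is no evidence of binding.

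Genes peaking from CT0 to CT4 were led by Serpinb12, a serine protease inhibitor of stratified epithelia (chromosome 1, 106934449 to 106957080, GRCm38). Its 4 libraries at CT0 had 4.42, 4.54, 3.44 and 4.35 log2 RPKM, and those at CT12 had 2.57, 1.73, 2.09 and 2.63. All CT0 libraries were above all CT12 libraries, a 3.83-fold difference of the means, and the fitted amplitude was 0.98 ± 0.09 (SE) with a peak at CT1.5 (adjusted p 1.82e-07). Thy1 followed with an amplitude of 0.81 ± 0.10 and a peak at CT0.5. Thy1 encodes a surface protein of the dendritic epidermal T cells, and 6 T cell markers including Thy1 summed to 79.0 to 115.6 RPKM at CT0 against 25.2 to 52.8 RPKM at CT12. Without Thy1 the other 5 markers summed to 23.8 to 41.6 RPKM at CT0 and 11.7 to 33.4 RPKM at CT12, and none of the 5 was called. Fewer T cells and less Thy1 RNA per cell cannot be told apart in bulk tissue. Hbegf, a growth factor ligand of the EGF receptor, peaked at CT3.0 but lost its call in every set without 1 replicate, and its libraries at CT0 and CT16 overlapped. Hist1h1c, a linker histone, and Rnase1, a secreted ribonuclease, peaked at CT2.6 and CT2.3.

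The window from CT4 was led by Stfa3, a cysteine protease inhibitor of the stefin A cluster, whose near-identical copies may share reads. Its libraries at CT0 had 4.41, 3.77, 4.56 and 5.51 log2 RPKM and those at CT16 had 1.94, 3.67, 3.18 and 1.61. These groups did not overlap, but the within-time SD of 0.72 and 0.98 was large beside the amplitude of 0.99 ± 0.22. Tgm3, the transglutaminase that crosslinks cornified envelope proteins, had an amplitude of 0.89 ± 0.18 with a peak at CT7.1. Ngfr, the low-affinity neurotrophin receptor, and Gpr146, an orphan receptor, had smaller but tighter rhythms of 0.67 ± 0.08 at CT7.7 and 0.59 ± 0.07 at CT7.2. Crispld2, a secreted protein whose E-box promoter is shown above, peaked at CT5.1 with an adjusted p of 0.0259 and kept its call in 2 of 4 sets without 1 replicate.

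From CT8 the first gene was Arsi, an arylsulfatase. Its libraries at CT8 had 2.96, 3.23, 3.12 and 3.13 log2 RPKM and those at CT20 had 1.31, 1.39, 0.94 and 0.24, so that the lowest CT8 library stood far above the highest CT20 library. The means differed by 4.42-fold and the fitted peak was CT8.6 (amplitude 1.01 ± 0.13, adjusted p 1.48e-05). Slc6a6, the taurine transporter, rose from a mean of 5.58 ± 0.12 (SD, n = 4) at CT0 to 6.99 ± 0.21 at CT8, 2.66-fold, and had the smallest adjusted p of these 30 genes (5.52e-08). Glul, glutamine synthetase, peaked at CT10.3 (amplitude 0.78 ± 0.12). Zbtb16, a transcriptional repressor induced by steroids, peaked at CT11.2 and kept its call in 2 of 4 sets without 1 replicate, whereas Sectm1b, a secreted and transmembrane protein, peaked at CT9.7 and kept it in all 4.

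From CT12 the first gene was Fkbp5, a co-chaperone of steroid receptors that glucocorticoids induce. Its libraries at CT12 had 2.76, 2.94, 5.21 and 4.37 log2 RPKM and those at CT4 had 2.30, 2.08, 1.07 and 1.89. The groups did not overlap, but the 4 libraries at CT12 were spread widely (SD 1.17), and without replicate 4 the adjusted p was 0.0628. Tsc22d3, also induced by glucocorticoids, was likewise spread at CT12 (5.35 ± 0.84, SD) and less so at its lowest time, CT0 (3.98 ± 0.24). Pdxk, the kinase that makes active vitamin B6, was tight instead, with 3.16, 3.08, 2.87 and 2.93 at CT12 against a mean of 1.47 ± 0.13 (SD) at CT4 (2.91-fold, amplitude 0.71 ± 0.08, peak CT13.9, adjusted p 1.26e-06). Gpr155, a lysosomal cholesterol sensor, peaked at CT12.6. Aloxe3, the epidermal lipoxygenase needed to build the lipid barrier, had a mean of 3.66 ± 0.24 at CT12 and 2.36 ± 0.20 at CT0 (2.45-fold, fitted peak near CT12).

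Amplitudes were smaller from CT16, where 7 genes reached 0.5 against 24 in the window before. Kctd12, a potassium channel tetramerisation domain protein, led with 0.54 ± 0.13, but its libraries at CT20 (6.62, 6.63, 6.94 and 6.98) overlapped those at CT4 (6.66, 6.06, 4.79 and 5.09), and its call held in 2 of 4 sets without 1 replicate. Zdhhc2, a palmitoyltransferase, was more even, with 3.03, 2.69, 2.91 and 3.10 at CT16 against a mean of 1.73 ± 0.22 (SD, highest 1.96) at CT4 (2.30-fold, adjusted p 1.13e-05). Tppp3, a tubulin-binding protein, was 7.54 ± 0.31 at CT0 and 6.04 ± 0.24 at CT4, a fall within 4 h. Its adjusted p was 0.0483 by the cosine, lost in all 4 sets without 1 replicate, and 0.00215 between times. Atp1b1, a subunit of the sodium pump, and Hsph1, an HSP110 chaperone, had their lowest level at CT4 as well.

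The window from CT20 held chemokine, cytokine and lipid genes among its first 5. Cxcl14, a chemokine made in quantity by keratinocytes, had 9.02, 8.78, 8.79 and 8.74 log2 RPKM at CT0 and 7.40, 7.31, 7.34 and 6.98 at CT12, a 2.98-fold difference (amplitude 0.70 ± 0.07, peak CT23.5, adjusted p 1.26e-06). Il33, an alarmin cytokine stored in keratinocyte nuclei, ran with it: 6.15 ± 0.20 at CT0 and 4.72 ± 0.31 at CT12, with a fitted peak at CT23.6. Scd2, a stearoyl-CoA desaturase, peaked at CT21.4 with wider spread (4.29 ± 0.45 at CT0, 3.03 ± 0.55 at CT12). Hs3st6, a heparan sulfate sulfotransferase, and Tmem35a, a chaperone of nicotinic receptors, peaked at CT22.5 and CT22.2.

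**Figure D2:**
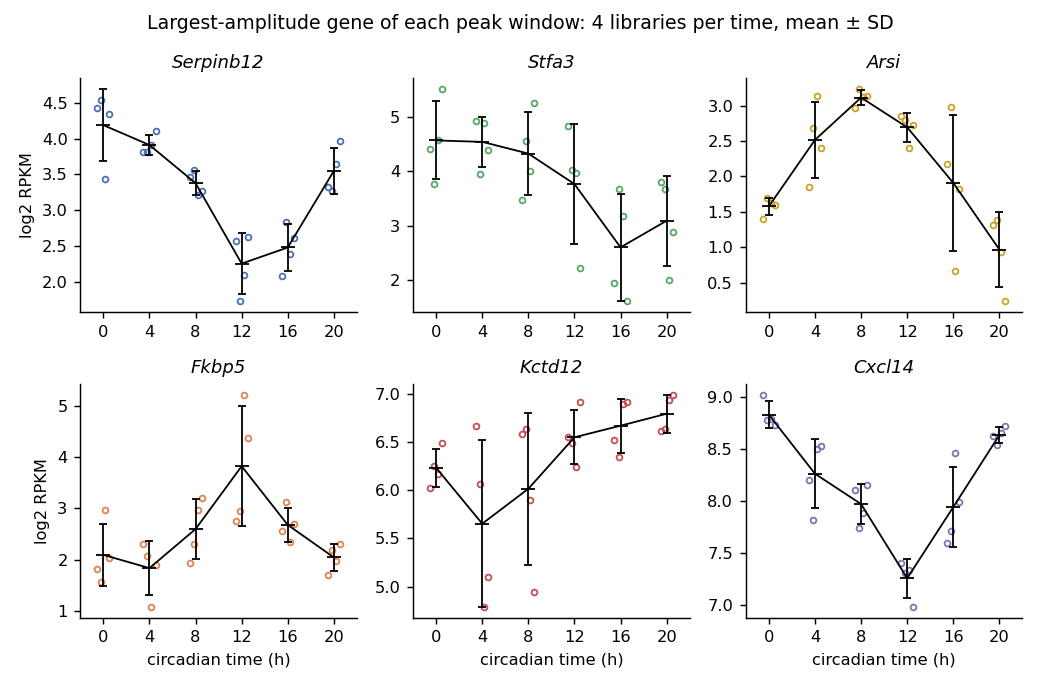
log2 RPKM (y axis) at each circadian time (x axis, h) of the gene of largest amplitude in each peak window outside the clock and cell cycle lists. Circles are the 4 libraries per time and black bars the mean ± SD; the 4 libraries of Cxcl14 and Arsi lie close together at their highest time, whereas those of Fkbp5 at CT12 span 2.76 to 5.21.

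Function was described with 45 gene lists, of which 44 had tested members. In the lists with at least 19 tested genes the share of rhythmic members, set against 33.1% of all tested genes, ran from 8.75% for the cytosolic ribosome to 63.6% for the glucocorticoid list, and 27 of the 44 lists lay above that of all genes. The lists differed as much in when their members peaked, as the bars by peak window show.

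**Figure D3:**
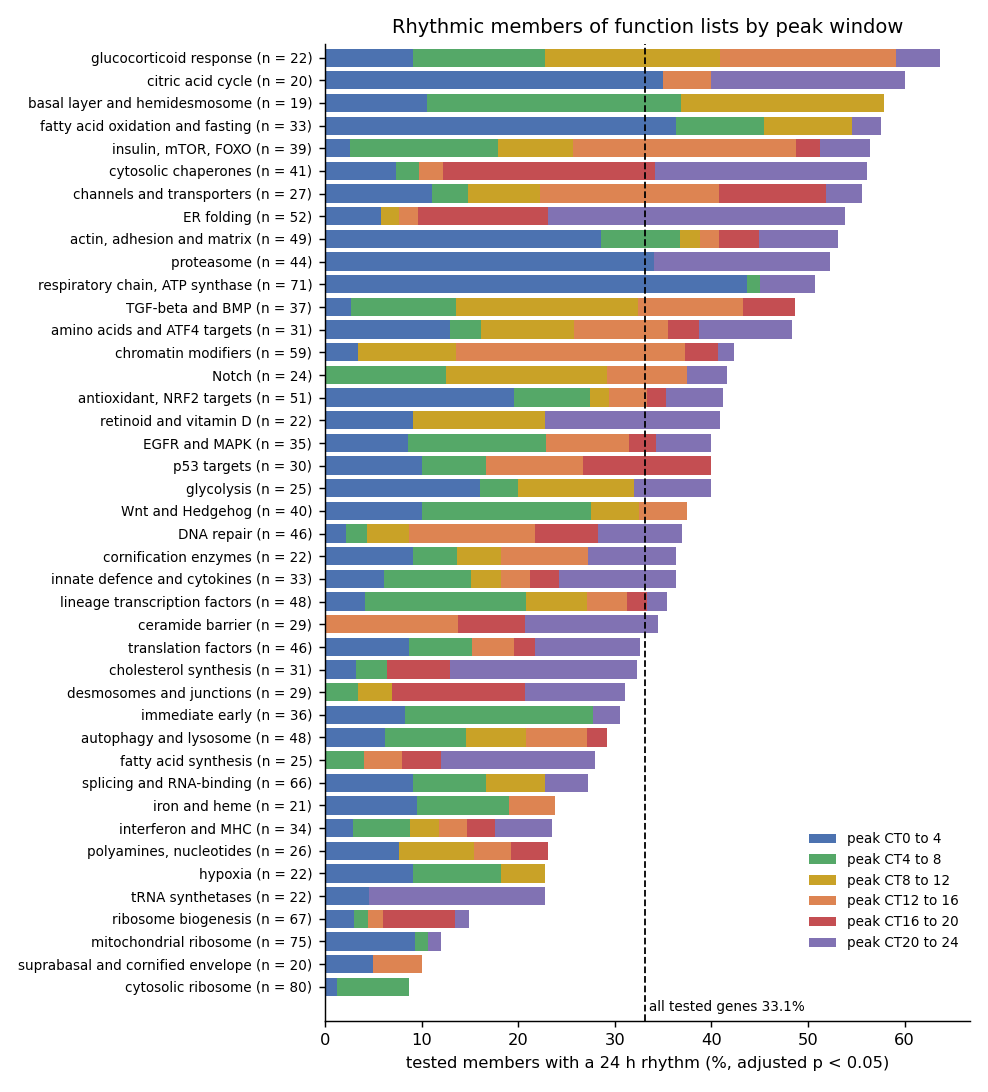
Share of tested members with a 24 h rhythm (x axis, percent) in the function lists with at least 19 tested genes, divided by colour into peak windows; n is the number of tested genes and the dashed line marks 33.1%, the share among all tested genes. The respiratory chain and proteasome bars are mostly the CT0 and CT20 colours, the chromatin bar mostly the CT12 colour, and the cytosolic ribosome bar is the shortest at 8.75%.

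Mitochondrial respiration was dominated by one time. Of 71 tested nuclear genes of the respiratory chain and ATP synthase 36 were rhythmic by the cosine (50.7%). Of the 36, 35 peaked between CT20 and CT4, where 10.8% of all tested genes were called. The test between times called only 10 of the 71, against 20.3% of all tested genes. Complex I, which oxidises NADH, had 16 of 37 members called, with a mean peak at CT1.4. Complex III with cytochrome c had 5 of 9 (mean peak CT0.5), complex IV, the oxygen-reducing end, 7 of 10 (CT1.6), and the ATP synthase 8 of 15 (CT1.8). Amplitudes were small, 0.10 to 0.25 in the called complex I genes. Atp5b, the catalytic beta subunit, had 0.14 ± 0.03 (adjusted p 0.0021), Ndufv3 of complex I 0.21 ± 0.04 (0.0029) and Cox7c of complex IV 0.24 ± 0.05 (0.00566). Averaged over all 71 genes, the libraries at CT0 lay between -0.005 and 0.34 log2 units from the mean of each gene and those at CT12 between -0.29 and -0.04. The spread within a time was wide, with 1 library at CT8 at 0.25, and the count of called members ran from 12 to 28 when 1 replicate was left out. The citric acid cycle followed the same hours, with 11 of its 12 called genes (of 20 tested) between CT20 and CT4. Its exception was Pcx, pyruvate carboxylase, at CT15.5 (amplitude 0.32 ± 0.06). The list fell to 2 to 10 called genes without 1 replicate, and the test between times called 2 of the 20. Transcripts of the mitochondrial genome were not analysed here.

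Called genes of fatty acid oxidation peaked mostly from CT0 to CT4. Of 33 tested genes 19 were called (57.6%), 12 of them from CT0 to CT4, where 5.47% of all tested genes were called. Acadl, long-chain acyl-CoA dehydrogenase, had the smallest p of the list. Its libraries at CT0 had 5.35, 5.36, 5.41 and 5.47 log2 RPKM and those at CT12 had 4.79, 4.89, 4.72 and 4.71 (amplitude 0.33 ± 0.03, peak CT0.1). Hadha and Hadhb, the 2 subunits of the mitochondrial trifunctional protein, peaked within 0.3 h of it. The mean over all 33 genes differed from this: it lay between -0.05 and 0.04 in the 4 libraries at CT0 and between 0.07 and 0.43 in those at CT4, so that every CT4 library was above every CT0 library. Ucp2, an inner membrane carrier, was called apart from them at CT9.2 (0.29 ± 0.04). Glycolysis had 10 of 25 genes called, among them Slc2a1, the main glucose transporter of keratinocytes, at CT2.0 (0.29 ± 0.05), and the regulatory kinase gene Pfkfb2 nearly opposite at CT11.2 (0.27 ± 0.04).

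The proteasome, which degrades ubiquitinated proteins, moved in the same hours with 23 of 44 genes called (52.3%), all 23 of them between CT20 and CT4. In the 20S core, which holds the proteases, 8 of 17 were called, each from CT0 to CT4 (mean peak CT1.2). In the 19S particle, which unfolds substrates, 12 of 22 were called, 8 from CT20 and 4 from CT0 (mean peak CT24.0). Psmd3 of the 19S particle changed by little and evenly, from 4.84 ± 0.13 log2 RPKM at CT0 to 4.60 ± 0.03 at CT12. The median amplitude of the called members was 0.13, and 5 to 19 stayed called without 1 replicate. The test between times called 7 of the 44, against 20.3% of all tested genes. Ribosomal protein genes were called less: 7 of 80 cytosolic and 9 of 75 mitochondrial ribosomal protein genes were called, shares of 8.75% and 12%, against 33.1% of all genes. Without 1 replicate 0 to 9 cytosolic and 2 to 6 mitochondrial ones were called, and under median-of-ratios scaling 13 and 12.

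Protein folding genes of the endoplasmic reticulum (ER) had most fitted peaks late in the subjective night, but their mean was highest at CT0. Of 52 tested genes 28 were called (53.8%), 23 of them between CT16 and CT24, where 11.1% of all tested genes were called. Lumenal chaperones and disulfide isomerases gave 12 of 21 with a mean peak at CT20.9. The translocon, signal peptidase and glycosylation machinery gave 10 of 17 (CT22.0). Degradation gave 3 of 8 and the stress sensors with Xbp1 3 of 4, with peaks in other windows as well. Calr, calreticulin, had 7.78, 7.79, 7.74 and 7.79 log2 RPKM at CT0 and 6.86, 6.92, 6.82 and 7.10 at CT8 (amplitude 0.45 ± 0.06, peak CT21.0, adjusted p 5.51e-05). Its highest measured time was CT0 and the step from there to CT4, where its libraries had 7.06, 7.17, 6.90 and 7.05, was abrupt. Hsp90b1, the ER form of HSP90, stepped likewise from 7.56 ± 0.10 at CT0 to 6.90 ± 0.12 at CT4. Averaged over all 52 genes, the 4 libraries at CT0 lay at 0.08 to 0.21 and the 4 at CT4 at -0.12 to -0.02. Those at CT16 lay at -0.03 to 0.13 and those at CT20 at -0.07 to 0.20. The means were 0.17 at CT0, 0.06 at CT16 and 0.05 at CT20. Between 16 and 23 members were called without 1 replicate, and the test between times called 25 of the 52.

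A promoter element named for ER stress was looked for in these genes. The ER stress element, CCAAT and CCACG with any 9 bases between them, the binding site of ATF6 with NF-Y in textbook descriptions, was searched on both strands of the RefSeq promoters. It was found in 9 of the 43 listed genes with a promoter (20.9%) and in 35 of all 27025 promoters (0.130%). The list is of ER folding and stress genes whatever their rhythm, where this element is to be expected, so its share describes the list only. Of the 9 genes 6 were called and 3, Creld2, Ero1lb and Syvn1, were not. The 6 had fitted peaks within 4 h of one another, from CT18.0 for Dnajc3 to CT21.6 for Hspa5. Of all 28 called members of the list 23 peaked between CT16 and CT24, so these hours do not set the 6 apart. Their elements are written on the element's strand (GRCm38.p6) with the fixed bases in capitals.
Calr, chr8:84847075-84847093: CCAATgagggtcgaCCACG
Canx, chr11:50325800-50325818: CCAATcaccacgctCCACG
Dnajc3, chr14:118937827-118937845: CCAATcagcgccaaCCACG
Hsp90b1, chr10:86705638-86705656: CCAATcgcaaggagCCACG
Hsp90b1, chr10:86705533-86705551: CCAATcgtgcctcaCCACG
Hspa5, chr2:34772025-34772043: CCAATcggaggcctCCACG
Pdia6, chr12:17266491-17266509: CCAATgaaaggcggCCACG
Hspa5, the main ER chaperone BiP, had 7.57, 7.70, 8.01 and 7.10 log2 RPKM at CT0 and 6.55, 6.57, 6.84 and 6.95 at CT4 (amplitude 0.33 ± 0.09, adjusted p 0.0218), and its call held only without replicate 3 among the 4 sets. Pdia6, a disulfide isomerase, and Canx, the membrane lectin chaperone calnexin, had amplitudes of 0.35 ± 0.06 and 0.21 ± 0.03.

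Cytosolic chaperones ran close to the ER genes. Of 41 tested genes 23 were called by the cosine (56.1%) and 21 by the test between times. Of the 23, 18 had fitted peaks between CT16 and CT24, where 11.1% of all tested genes were called. The mean over all 41 was also highest at CT0, with 0.13 against 0.02 at CT16 and 0.03 at CT20. HSP90 and its co-chaperones gave 10 of 12 with a mean peak at CT19.9. HSP70, HSP110 and J proteins gave 6 of 14 (CT18.8), and the chaperonins 6 of 9 (CT22.6). Stip1, which bridges HSP70 and HSP90, had an amplitude of 0.27 ± 0.06 and St13, another HSP70 partner, 0.20 ± 0.04, peaking at CT19.9 and CT20.2. Hsph1 had the largest amplitude outside Fkbp5: 4.34, 4.51, 4.68 and 3.88 log2 RPKM at CT0 against 3.29, 3.13, 3.09 and 3.26 at CT4. The heat shock element is GAA, TTC and GAA with any 2 bases between each. It was in 4 of 33 listed promoters (12.1%) and in 0.529% of all promoters, which again describes the list. Hsph1 and Chordc1, a HSP90 co-chaperone, hold it and were called, and Dnajb6 and Hspe1 hold it and were not. It is shown for Hsph1 and for the first of 3 copies in Chordc1.
Hsph1, chr5:149636288-149636300: GAActTTCcaGAA
Chordc1, chr9:18292263-18292275: GAAcgTTCggGAA
The reads of Hspa1a and Hspa1b, near-identical copies that were both called, may be split between them in ways that cannot be traced. Without 1 replicate 8 to 19 members of the list were called, and under median-of-ratios scaling 5 of 21 called genes, against 9 of 23, peaked from CT16 to CT20. Skin was held in warm dispase before lysis in all libraries, and what that step adds to chaperone RNA was not tested.

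**Figure D4:**
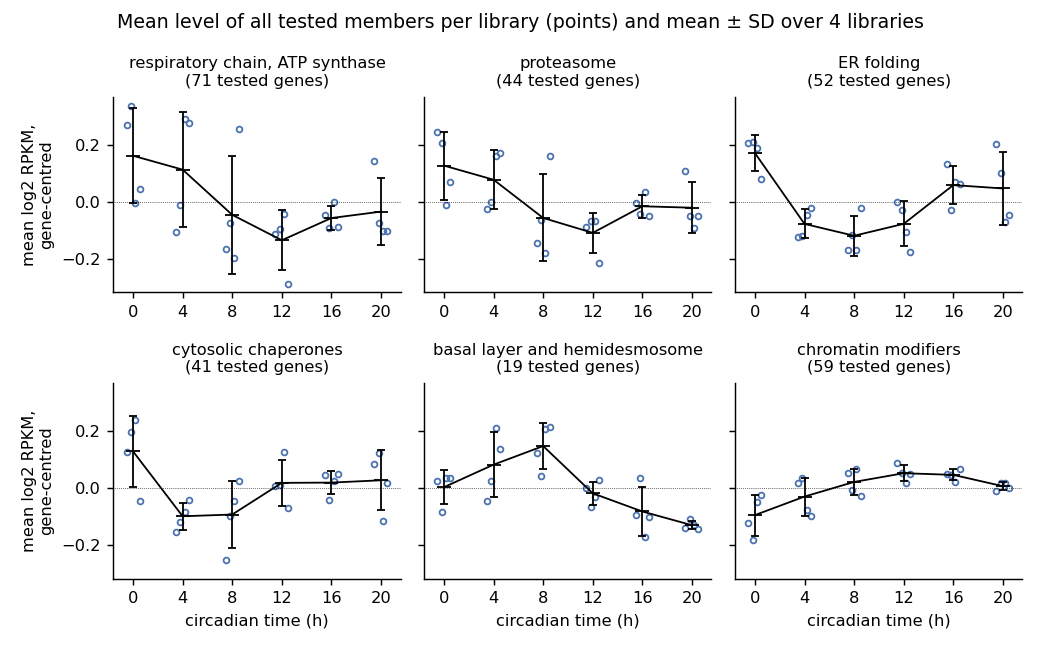
Mean over all tested members of 6 function lists of the gene-centred log2 RPKM (y axis), called or not, at each circadian time (x axis, h). Circles are libraries and black bars the mean ± SD of 4; ER folding lies at 0.08 to 0.21 in all 4 libraries at CT0 and below 0 in all 4 at CT4 and CT8, and the basal layer list lies at -0.14 to -0.11 at CT20.

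The basal layer peaked in the subjective day. Of 19 tested genes of basal keratins, integrins, hemidesmosomes and basement membrane 11 were called (57.9%), 9 of them between CT4 and CT12, where 8.28% of all tested genes were called. Dst, a hemidesmosomal plakin, had 5.45, 5.75, 5.58 and 6.00 log2 RPKM at CT12 and 4.38, 4.35, 4.83 and 4.83 at CT0. These groups did not overlap, and the fitted peak was CT10.6 (amplitude 0.51 ± 0.07). Col7a1, the collagen of anchoring fibrils, and Col4a2, a basement membrane collagen, peaked at CT6.1 and CT6.2. Suprabasal and cornified envelope genes were seldom called, with 2 of 20 (1 to 6 without 1 replicate): Ppl, periplakin, at CT12.5 (0.23 ± 0.04) and Krt1, the main suprabasal keratin, at CT0.4 (0.19 ± 0.05). Their libraries were more spread, with a median within-time SD of 0.34 against 0.13 in the basal layer list and 0.16 over all tested genes. Their median amplitude of 0.18 was not smaller than the 0.14 of the basal layer list. Few calls therefore do not show that these genes lack a rhythm. Of 22 cornification enzymes and inhibitors 8 were called in several windows, among them Cstb at CT2.5 and Serpinb5 at CT20.1 beside Serpinb12 and Tgm3.

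Signals and transcription factors of basal cells were called at shares nearer to that of all genes. Of 40 Wnt and Hedgehog genes 15 were called (37.5%, and 5 to 11 genes without 1 replicate), 9 of them between CT4 and CT12, where 8.28% of all tested genes were called. Wnt3a, a Wnt ligand, had an amplitude of 0.45 ± 0.07 at CT6.3, and Gli3, a Hedgehog effector, 0.19 ± 0.05 at CT8.7. Of 37 TGF-beta and BMP genes 18 were called (48.6%, and 8 to 16 genes without 1 replicate), 11 in the same hours, including the ligand Bmp7 (0.26 ± 0.04, CT8.6), the antagonist Fst (0.49 ± 0.08, CT6.2) and the latent binding protein Ltbp4 (0.29 ± 0.03, CT10.4). Of 24 Notch genes 10 were called, with the ligands Jag2 at CT8.0 and Jag1 at CT10.4 and the receptor-shedding proteases Adam10 at CT15.4 and Adam17 at CT20.5. Among 48 lineage transcription factors 17 were called (35.4%, and 4 to 11 genes without 1 replicate), 11 between CT4 and CT12. Klf5, a factor of proliferating keratinocytes, had 7.09, 7.10, 7.17 and 7.02 log2 RPKM at CT8 and 6.54, 6.73, 6.45 and 6.47 at CT20.

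Chromatin modifiers clustered in the early subjective night. Of 59 tested genes 25 were called (42.4%), 14 from CT12 to CT16 (8.26% of all tested genes) and 6 from CT8 to CT12 (4.46%). Kmt2d, a histone H3 methyltransferase, peaked at CT13.9 (0.26 ± 0.04). A pair of deacetylases came earlier: Hdac11 at CT8.9 with 0.55 ± 0.07 and Hdac5 at CT9.8 with 0.19 ± 0.03. Hdac11 had 4.44, 4.16, 4.55 and 4.39 log2 RPKM at CT8 and 3.34, 3.64, 3.25 and 3.08 at CT0. Insulin, mTOR and FOXO pathway genes were called in 22 of 39 cases (56.4%), 9 of them from CT12 to CT16 (8.26% of all tested genes). That window held 24.9% of all called genes. Among the 9 were Deptor, an mTOR inhibitor (0.39 ± 0.07, CT13.3), the mTOR restrainer Tsc1 (CT13.4) and the mTOR target kinase Rps6kb1 (CT14.9).

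Actin, adhesion and matrix genes were called in 26 of 49 cases (53.1%), 14 of them from CT0 to CT4 (5.47% of all tested genes). Mmp14, a membrane matrix metalloproteinase, peaked at CT0.8 (0.32 ± 0.05), Thbs2, a matricellular protein, at CT2.7 (0.32 ± 0.05) and Zyx, a focal adhesion protein, at CT4.7 (0.31 ± 0.05). Tnxb, tenascin-X, was opposite, with 6.07, 6.09, 5.98 and 6.18 log2 RPKM at CT12 and 5.20, 4.64, 5.10 and 5.25 at CT0. Markers of fibroblasts summed to 10.4 to 19.2 RPKM per library, with Lum and Pdgfra near 0, and their part in the matrix genes was not tested.

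Of 51 tested antioxidant genes 21 were called (41.2%), 10 of them from CT0 to CT4 (5.47% of all tested genes) and 4 from CT4 to CT8 (3.82%). The glutathione transferases Mgst2 (0.47 ± 0.06) and Gstm2 (0.34 ± 0.05) peaked at CT3.4 and CT3.7. Sod2, the mitochondrial superoxide dismutase, peaked at CT13.9 with very even libraries: 3.93, 3.96, 3.77 and 3.87 log2 RPKM at CT12 and 3.15, 3.15, 3.23 and 3.15 at CT4. That is opposite to the respiratory chain genes of the same organelle, which peaked near CT1. DNA repair genes were called in 17 of 46 cases, among them Polb, the base excision polymerase, at CT21.9 (0.25 ± 0.03), Atm, the double-strand break kinase, at CT14.4 (0.29 ± 0.04) and Xpc, the sensor of nucleotide excision repair, at CT6.4 (0.23 ± 0.04).

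Lipid synthesis genes were called at shares near that of all genes. Cholesterol synthesis and uptake had 10 of 31 genes called (32.3%), and 2 to 12 without 1 replicate. Of the 10, 8 peaked between CT16 and CT24 (11.1% of all tested genes), including Hsd17b7 at CT21.5 (0.31 ± 0.07) and Cyp51 at CT18.8 (0.23 ± 0.06). Fatty acid synthesis had 7 of 25, with Acaca, acetyl-CoA carboxylase, at CT20.1 (0.29 ± 0.05) and Gpam, which starts glycerolipid synthesis, at CT12.4 (0.44 ± 0.06). Ceramide barrier genes had 10 of 29, including Elovl7 at CT19.0 (0.30 ± 0.03) and Kdsr at CT14.2 (0.19 ± 0.03).

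Large amplitudes with wide spread between mice were seen in a pair of lists. The glucocorticoid list had 14 of 22 genes called (63.6%) with a median amplitude over all tested members of 0.32, against 0.12 over all tested genes. Its mean ran from -0.24 to 0.76 across the 4 libraries at CT12, and 3 to 9 members were called when 1 replicate was left out. Immediate early genes, which respond within minutes to stress and handling, had 11 of 36 called (30.6%), near the background. Ctgf and Cyr61, targets of YAP signalling that rise on cell stretch, peaked at CT5.7 (0.54 ± 0.14) and CT4.5 (0.56 ± 0.14). The mean of this list ran from -1.05 to 0.83 over the libraries, and 1 to 4 members were called without 1 replicate. The part of handling at collection in these genes was not tested. The 2 cold-inducible RNA-binding protein genes were both called, Rbm3 at CT8.0 (0.32 ± 0.05) and Cirbp at CT5.3 (0.34 ± 0.08, held in 1 of 4 sets without 1 replicate).

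Leaving out 1 replicate lowered the counts of most lists. It left 7 to 11 called members in the basal layer list, 15 to 20 in the chromatin list, 13 to 19 in the actin, adhesion and matrix list and 10 to 13 in the fatty acid oxidation list. The insulin, mTOR and FOXO list kept 9 to 16, glycolysis 6 to 10, antioxidant genes 12 to 14, DNA repair 10 to 13 and the ceramide barrier 4 to 9. Of the 203 named genes with a 24 h call, 137 were called in all 4 sets.

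A part of these lists was also described in the RERE time course, whose 24 libraries are separate from the WT ones and in which 2136 of 11032 genes were called (19.4%). Of 71 respiratory chain genes 10 were called (14.1%), and of 44 proteasome genes 9 (20.5%). All of these peaked between CT20 and CT4, where 7.57% of all tested genes were called. The shares called in the respiratory chain, ER folding and cytosolic chaperone lists lay below the 19.4% of all tested genes in RERE. In WT they lay above that of all genes. Actin, adhesion and matrix genes had 24 of 48 called (50%), 20 of them from CT0 to CT4 (3.91% of all tested genes). ER folding had 9 of 52 called (17.3%), 6 of them from CT20 (3.66%) and 3 from CT12. Cytosolic chaperones, with 7 of 41 called (17.1%), stood otherwise. Of the 7, 5 peaked from CT12 to CT16 (7.54%) and 0 from CT16 to CT24 (5.47%), where 18 of 23 did in WT. The window from CT12 held 5 of 7 called chaperone genes in RERE against 1 of 23 in WT. Over all called genes it held 832 of 2136 in RERE against 916 of 3675 in WT. The basal layer had 5 of 19 (26.3%), 3 of them between CT4 and CT12 (2.45% of all tested genes). Wnt and Hedgehog had 5 of 39 (12.8%), 2 of them in those hours. TGF-beta and BMP had 7 of 35 (20%), with 1 in those hours and 4 from CT12 to CT16, against 11 of 18 between CT4 and CT12 in WT. Lineage factors had 5 of 48 (10.4%), 2 of them between CT4 and CT12. The RERE count of called genes ranged from 875 to 1619 without 1 replicate, and the difference between the 2 sets of peak times was not tested.

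Shapes other than a 24 h cosine were tested in 2 ways. A 12 h term added to the cosine called 0 of 11087 genes in limma (1007 had an unadjusted p under 0.05, and the smallest adjusted p was 0.185). The 4 h sampling cannot tell a 12 h period from one of 6 h. The test between times called 2249 genes (20.3%), 1990 of them also by the cosine and 259 by this test alone. Among the 2249 genes the 24 h component took a median of 83.8% of the variance between times, the 12 h component 9.26% and the 8 h component 3.04%.

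The 6 genes with the smallest p among those called between times and not by the cosine were Usp28, Taf1b, Frem2, Cyp2j9, Arl2bp and Zfp949, and all 6 were highest at CT4. Without 1 replicate the call between times held in all 4 sets for Usp28 and Taf1b, in 3 for Frem2 and Cyp2j9, and in 2 for Arl2bp and Zfp949. Usp28, a deubiquitinase, had 2.49, 2.76, 2.73 and 2.68 log2 RPKM at CT4 and 2.11, 1.82, 2.14 and 2.15 at CT0, 1.53-fold apart. Its means at the later times lay between 2.34 and 2.56 (adjusted p between times 0.00177, by the cosine 0.113). Taf1b, a subunit of the RNA polymerase I initiation factor, had 3.37, 3.38, 3.14 and 3.25 at CT4 and 2.68, 2.68, 2.63 and 2.83 at CT12, with a second, lower rise at CT20 (3.10 ± 0.08). Frem2, an extracellular matrix protein of the epidermal basement membrane, was 4.00 ± 0.10 at CT4 and 3.18 ± 0.30 at CT12. Cyp2j9, a cytochrome P450, was high at CT4 alone (3.17 ± 0.05), with the means of the other times at 2.60 to 2.85. Rfx2, a ciliogenic transcription factor chosen after its values were seen and called in 3 of the 4 sets, was the inverse: 2.88, 1.91, 2.02 and 1.12 at CT4 against 4.14, 4.47, 4.17 and 3.71 at CT12.

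**Figure D5:**
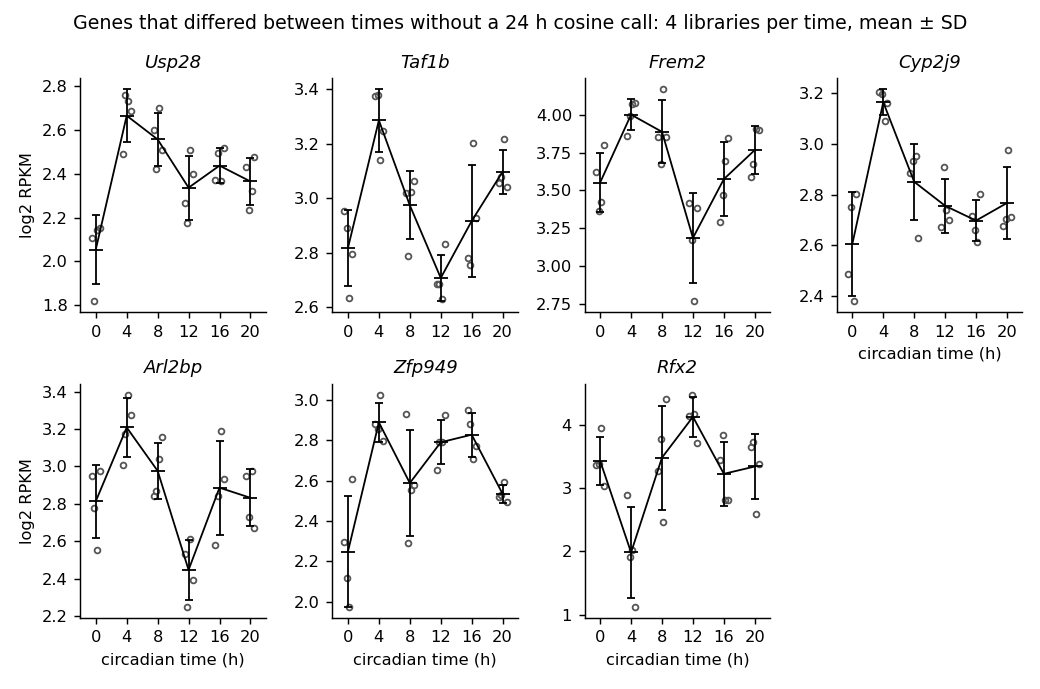
log2 RPKM (y axis) at each circadian time (x axis, h) of 7 genes that differed between times without a 24 h call; circles are the 4 libraries per time and black bars the mean ± SD. The first 6 genes have their highest mean at CT4, and Rfx2 has its lowest there.

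The 2 largest-amplitude genes of each window were compared with the other genotypes by a test of the difference in rhythm, fitted over all tested genes of 48 libraries. The 3 comparisons share the WT libraries, and the genes were chosen for a large amplitude in them, so a larger rhythm in WT is favoured by the choice. Against RERE no gene differed (0 of 11051 in limma, 837 at an unadjusted p under 0.05), which does not show that the rhythms were alike. Against EpiRE 174 of 11059 genes differed (1.57%), a count that fell to 37 without replicate 2 and to 39 without replicate 4. Against BRE 627 of 11016 differed (5.69%), with 305 to 380 without 1 replicate. Cxcl14 had an amplitude of 0.70 ± 0.07 in WT and 0.87 ± 0.07 in RERE, against 0.14 ± 0.08 in EpiRE and 0.06 ± 0.08 in BRE (adjusted p of the difference from WT 0.824, 0.00244 and 1.68e-05). Pdxk had 0.71 ± 0.08, 0.75 ± 0.05, 0.09 ± 0.07 and 0.22 ± 0.07 (0.993, 0.000294 and 2.83e-05). Fkbp5 stood otherwise, with 0.81 ± 0.18 in WT and 1.01 ± 0.24 in BRE, both peaking near CT12.4, and no difference called (adjusted p 0.899). Glul in BRE likewise had 0.75 ± 0.14 against 0.78 ± 0.12 in WT. Serpinb12, Arsi and Zdhhc2 differed in both EpiRE and BRE, although against EpiRE the call of Arsi held in 2 of 4 sets without 1 replicate and that of Zdhhc2 in 1 of 4. Calls held in 3 of 4 sets for Pdxk in EpiRE (highest adjusted p 0.0655), Cxcl14 in EpiRE (0.0591) and Zdhhc2 in BRE (0.0511). Thy1 differed in BRE (adjusted p 0.0021) and was not called in EpiRE (0.124). Stfa3, Tgm3, Kctd12 and Scd2 were called in neither. The circadian times of EpiRE and BRE rest on the column names of 1 kind of deposited table.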

How the data were processed

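Epidermal polyadenylated RNA of 24 WT libraries was measured. Per the submitters' processing notes, Trimmomatic 0.36, HISAT2 2.2.1, SAMtools 1.3.1, featureCounts 1.6.0, edgeR and mm10 were used, and per the labels' protocols the libraries were stranded and carried molecular identifiers. The sources used here do not say whether identifiers or strand entered the counting. The authors deposited log2 RPKM values per gene. Whole reads were recovered for 99.9% of 22497 genes (99.9% of values within 0.1 read, prior of 0.25 reads) and used for depth and for an added limma-voom fit, which called 3748 genes with a 24 h rhythm. The authors also deposited p-values and q-values of JTK_CYCLE and BIOCYCLE: 856 tested genes had both q-values of the authors' deposited tables under 0.05, and 855 of them were called here; these make up 23.3% of the genes called here. The 96 per-library columns of the JTK_CYCLE tables were not used.

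The log2 RPKM values were fitted with limma 3.58.1 (R 4.3.3), variance trend included, in genes with a mean of at least 0, and p-values were adjusted by Benjamini-Hochberg over all genes tested. WT was fitted with a 24 h cosine, with time as a factor, and with a 12 h term beside the cosine. Genotypes were compared by a genotype-by-cosine term over 48 libraries. The scripts were tested on simulated data. Python 3.11.15, numpy 2.4.6, pandas 2.3.3 and matplotlib 3.10.9 were used. The members and lists were chosen with earlier results of these data known, so a list's share is a description. Genes named were the 5 of largest amplitude in each window with a mean log2 RPKM of at least 2, outside the clock and cell cycle lists and without predicted symbols. To these were added the 6 of smallest p called between times and not by the cosine, up to 4 called members of smallest p in each list (all where 5 or fewer), and reference genes of the clock and cell cycle. Rfx2, Hspa5, Hsp90b1, Pdia6, Dnajc3, Chordc1 and the other element-bearing genes were chosen after their values were seen. Promoters are those of RefSeq, GRCm38.p6; 79.9% of tested genes matched, under the 80% needed, so motif shares are given for all promoters and for lists with better matches only. The test between times sets differences against the spread between mice of 1 time. In the cosine, 12 h and genotype tests the spread also holds departures of the time means from the fitted curve. All tests take the 4 libraries of a time as independent. Alternatives were other pseudocounts, filters, scalings, variance priors, a shared spread, a replicate block and leaving out each replicate. Some genes of the lists are not reported here by name.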

Additional observations from a re-analysis of the deposited data

Results flagged for a closer look

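One library stood apart from the other 3 of its time among 16 groups screened: Usp28 at CT0 had 1.82 log2 RPKM in replicate 2 against 2.11 to 2.15 in the others. Chance flags about 1 group in 20.

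Rhythms differed from WT in 11 of 36 comparisons, 12 genes in each of 3 genotypes (limma, adjusted p of the difference in the cosine terms). The genes were chosen for a large amplitude in the WT libraries that entered the tests, which favours such a difference, so the count is a description. Over all tested genes 0 differed in RERE, 1.57% in EpiRE and 5.69% in BRE. Serpinb12 differed in EpiRE (0.000189) and BRE (7.25e-05). Arsi differed in EpiRE (0.0208) and BRE (0.000173), Pdxk in EpiRE (0.000294) and BRE (2.83e-05), and Zdhhc2 in EpiRE (0.0401) and BRE (0.000853). Cxcl14 differed in EpiRE (0.00244) and BRE (1.68e-05), and Thy1 in BRE (0.0021). The EpiRE call of Zdhhc2 held in 1 of 4 sets without 1 replicate and that of Arsi in 2 of 4. Those of Pdxk and Cxcl14 in EpiRE and of Zdhhc2 in BRE held in 3 of 4.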

How the results depend on the processing

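No tested result changed direction, but the order of the peak windows did change. Beside 3675 genes with a 24 h rhythm in WT, 2019 to 2701 were called without 1 replicate, and beside 2249 genes differing between times, 875 to 998. The peak windows from CT0, CT4, CT8, CT12, CT16 and CT20 then held 247 to 534, 118 to 368, 288 to 422, 373 to 709, 289 to 487 and 314 to 486 genes. Median-of-ratios scaling gave 3941 genes and 832, 544, 558, 844, 537 and 626 by window, so that the window from CT12 was the fullest by a small margin and that from CT16 the emptiest. Without replicate 2 the window from CT16 (390) was fuller than that from CT12 (373). The 12 h term called 0 genes in all settings but 2, with 1 gene without the mean trend and 0 to 1 without 1 replicate. RERE had 2136 rhythmic genes and 875 to 1619 without 1 replicate. Against EpiRE, 174 genes differed, 97 without the filter on low values and 37 to 245 without 1 replicate. Against BRE, 627 differed and 305 to 380 without 1 replicate. The cause was not tested, and sets without 1 replicate also have fewer libraries. Of 203 named 24 h calls, 11 were lost without the filter, 5 with the spread shared over all libraries and 18 to 44 without 1 replicate; of 7 named calls between times, 1 to 3 were lost without 1 replicate.

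Deviations from the time means correlated at a mean of 0.006 between libraries of the same replicate number across times (-0.33 to 0.38). Between libraries of other numbers the mean was -0.002. A mean near 0 can also arise when deviations change sign between times, so it does not show that the libraries were unpaired. Of 24 libraries 10 correlated best with their own number. In some genes and not in others, replicates 1 and 2 of a time stood apart from 3 and 4. Tppp3 at CT20 had 7.82, 7.64, 6.48 and 6.62 log2 RPKM. Rpl41 had 10.11, 10.18, 9.83 and 9.75 at CT0, and the reverse at CT4 (9.68, 9.93, 10.34 and 10.34). Whether the libraries of a time formed such pairs over all genes was not tested. With the replicate block 3566 genes had a 24 h rhythm, 2113 differed between times, 2065 were rhythmic in RERE, and 150 and 643 differed against EpiRE and BRE.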
